A study of Mus musculus with 56 samples.

Results

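The arrays described here are the 14 fat-rich and the 14 fat-poor muscle pieces among 56 expression arrays of mouse gastrocnemius, the large calf muscle. They were chosen by measured values: 12 arrays with a Glycam1 intensity over 2000 were left out, since Glycam1 marks lymph node vessels, and the other 44 were ranked by Adipoq, the gene of the fat cell hormone adiponectin. The highest 14 were called fat-rich, the lowest 14 fat-poor, and 16 arrays lay between them. Female C57BL/6 mice were exposed by the nose alone to 4% cigarette smoke (mainstream) or, as sham exposure, to air for 2 hours a day on 5 days a week. Smoke and air groups were sampled at 2, 12 and 24 weeks, both cessation arms had 12 weeks of smoke and then 12 weeks of sham exposure, and untreated mice were taken at week 0. The cessation arms are labelled FA and RA, and no label spells these letters out. Each of the 9 groups had 6 arrays, except smoke at 12 weeks with 8, of which 2 came from a single mouse; 1 of that pair was left out for its Glycam1 value. All arrays carry RNA of a cut piece of muscle, amplified and labelled with biotin by 1 procedure. No histology or fat content is used here, so "fat-rich" means rich in Adipoq RNA, and in bulk samples more fat cells and more RNA per fat cell cannot be told apart.

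White fat cells store triglyceride in a large droplet and secrete hormones such as leptin, adiponectin and resistin. Their formation and identity depend on the transcription factors encoded by Pparg and Cebpa. In skeletal muscle, fat cells lie between fibres and fibre bundles, and they arise there from stromal progenitors that carry the receptor Pdgfra. How much of this fat a piece of muscle holds can vary with where the muscle is cut.

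Adipoq set the ranking, so its values are a description and were not tested. On the scale of log2(intensity + 16), which all levels here use, Adipoq had a lowest level of 11.14, a median of 11.41 and a highest level of 12.99 in the fat-rich arrays, against 9.35, 10.18 and 10.59 in the fat-poor arrays. The median intensity was 2696 in fat-rich and 1143 in fat-poor arrays, a ratio of 2.36. The sets are cut from a continuous range: the highest of the arrays between them was at 11.10, just under the lowest fat-rich array, and their lowest was at 10.61, just over the highest fat-poor array. The 12 arrays left out had Adipoq between 12.35 and 13.12, a range that 1 kept array reached, replicate 2 of the 24-week air group. Glycam1 intensity was 6944 to 10546 in those 12 arrays and at most 307 in fat-rich and 214 in fat-poor arrays.

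**Figure D1:**
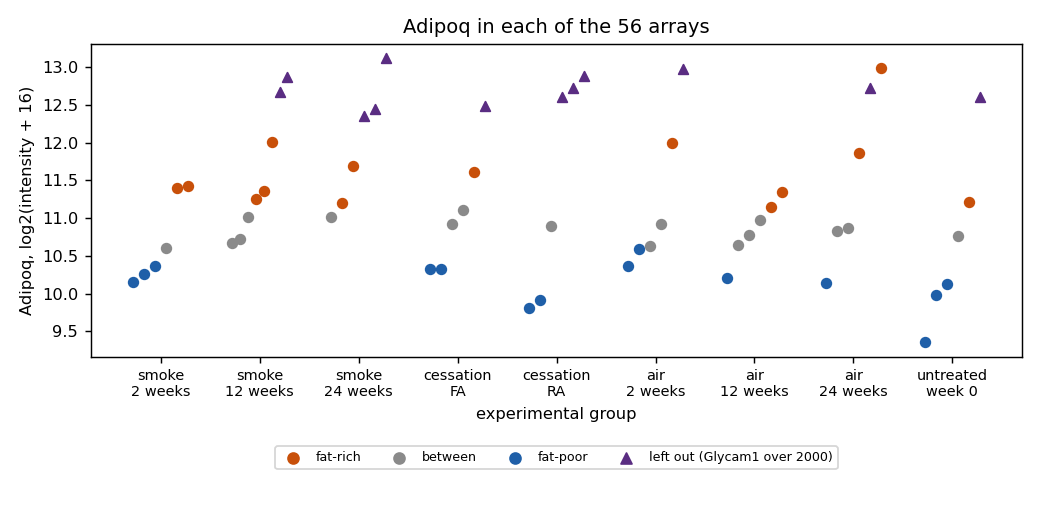
Adipoq level, as log2(intensity + 16), of each of the 56 arrays by experimental group; orange points are the 14 fat-rich, grey the 16 between, blue the 14 fat-poor arrays, and purple triangles the 12 arrays left out for Glycam1. The fat-rich points run from 11.14 to 12.99 and the fat-poor points from 9.35 to 10.59, and both kinds occur in 6 of the 9 groups.

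The sets were spread unevenly over the exposure groups. Fat-rich and fat-poor arrays numbered 2 and 3 in smoke at 2 weeks, 1 and 2 in cessation FA, 1 and 2 in air at 2 weeks, 2 and 1 in air at 12 weeks, 2 and 1 in air at 24 weeks, and 1 and 3 in untreated mice. Smoke at 12 weeks gave 3 fat-rich and smoke at 24 weeks 2 fat-rich arrays, both with 0 fat-poor, and cessation RA gave 0 fat-rich and 2 fat-poor arrays. Of the fat-rich arrays 8 came from mice that had breathed smoke, against 7 of the fat-poor arrays. With the group as a covariate, the 5 fat-rich and 2 fat-poor arrays of the last 3 groups add nothing to the fitted difference, which rests on 9 fat-rich and 12 fat-poor arrays.

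Muscle and fat markers were first set against the names of the sets. Ckm, the muscle creatine kinase, was 13.03 to 13.25 in fat-rich and 13.05 to 13.24 in fat-poor arrays, so this muscle marker spans nearly the same high range in both sets. Cidec, which makes lipid droplets fuse and grow in white fat cells, was 8.63 to 11.61 in fat-rich and 7.03 to 8.25 in fat-poor arrays, with no overlap. The other markers chosen for fat cells divided. Retn did not overlap between the sets, Lep overlapped in part, and Fabp4 did not pass the test, as described below. Lipe was not among the genes called either, and Plin1 and Cfd had no usable probe set.

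Of 12350 genes tested with limma, 83 (0.672%) were higher in fat-rich arrays at a Benjamini-Hochberg adjusted p under 0.05, and 0 (0%) were lower. The p values measure how a gene goes with Adipoq across arrays and not an effect of any exposure. Without adjustment, 1182 genes had p under 0.05 and a difference above 0, and 188 had p under 0.05 and a difference below 0. The lowest adjusted p among genes with a difference below 0 was 0.10. Differences of the 83 genes ran from 0.19 to 1.82 on the log2 scale, with a median of 1.01, and 42 of them were at 1 or more. Over all genes tested, the median difference was 0.02 and 59.4% were above 0. In 27 of the 83 the lowest fat-rich array lay above the highest fat-poor array; over all genes tested 28 (0.227%) did so in this direction and 0 in the other. Within each of the 6 groups that hold both sets, 80 of the 83 had a higher mean in the fat-rich arrays of that group. The fitted difference rests on these same arrays, 1 to 3 of a set in a group, so this count adds no support to the calls. The share over all genes tested was not counted. Adipoq itself had a fitted difference of 1.41, and 18 of the 83 exceeded it. Leaving out 1 array moved the 0.672% to 0.308% (fat-rich replicate 1 of smoke at 2 weeks), 0.397% (fat-rich replicate 6 of cessation FA), 0.356% (fat-rich replicate 1 of air at 2 weeks), 1.10% (fat-rich replicate 4 of air at 12 weeks), 1.26% and 1.81% (fat-rich replicates 2 and 5 of air at 24 weeks) or 0.267% (fat-poor replicate 1 of air at 24 weeks), that is, to between 33 and 223 genes. Of the 83, 0 were still called with 10 arrays in each set, 10 without the smoke group of 2 weeks, and 24 when arrays were ranked by Cidec, although all 83, which were chosen for a difference above 0, stayed above 0 in each of 57 alternatives in which they were measured.

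Hormones of fat cells and proteins that fat cells release were among the largest differences. Lep, which encodes leptin, the hormone that reports fat stores to the brain, had a lowest level of 6.62, a median of 7.85 and a highest of 10.07 in fat-rich arrays, against 5.29, 6.36 and 7.01 in fat-poor arrays. The sets overlapped: 10 of the 14 fat-rich arrays lay above every fat-poor array. Its difference was 1.82 ± 0.30 (SE), a fold of 3.53 (limma adjusted p = 0.0041). Retn, which encodes resistin, had levels of 10.06, 10.88 and 12.80 (lowest, median, highest) in fat-rich arrays, against 7.83, 9.15 and 9.94 in fat-poor arrays. The sets did not overlap, and its difference was 1.64 ± 0.22 (limma adjusted p = 0.00079). Hp, the haemoglobin-binding plasma protein haptoglobin, had levels of 8.20, 9.57 and 11.28 in fat-rich arrays, against 7.07, 7.93 and 8.34 in fat-poor arrays. All but 1 of the fat-rich arrays exceeded the highest fat-poor array, and the difference was 1.59 ± 0.23 (limma adjusted p = 0.0014). Apoc1, an apolipoprotein, differed by 1.49 ± 0.31, Orm1, an acute-phase protein that binds lipids and drugs, by 1.46 ± 0.33, and Rbp4, the retinol carrier of plasma, by 1.41 ± 0.27. Orm1 passed narrowly (limma adjusted p = 0.043) and kept its call in 25 of 57 alternatives. Apoc1 kept it in 47 of 56 and Rbp4 in 50 of 57. In all, 6 of the 15 tested genes for secreted fat hormones and carriers rose, and 13 of the 15 were above 0. The list's median was 0.60 beside 0.02 for all genes. Apoe, at 0.53 ± 0.14 (limma adjusted p = 0.081), and Nrg4, at 1.00 ± 0.25 (limma adjusted p = 0.080), did not pass.

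**Figure D2:**
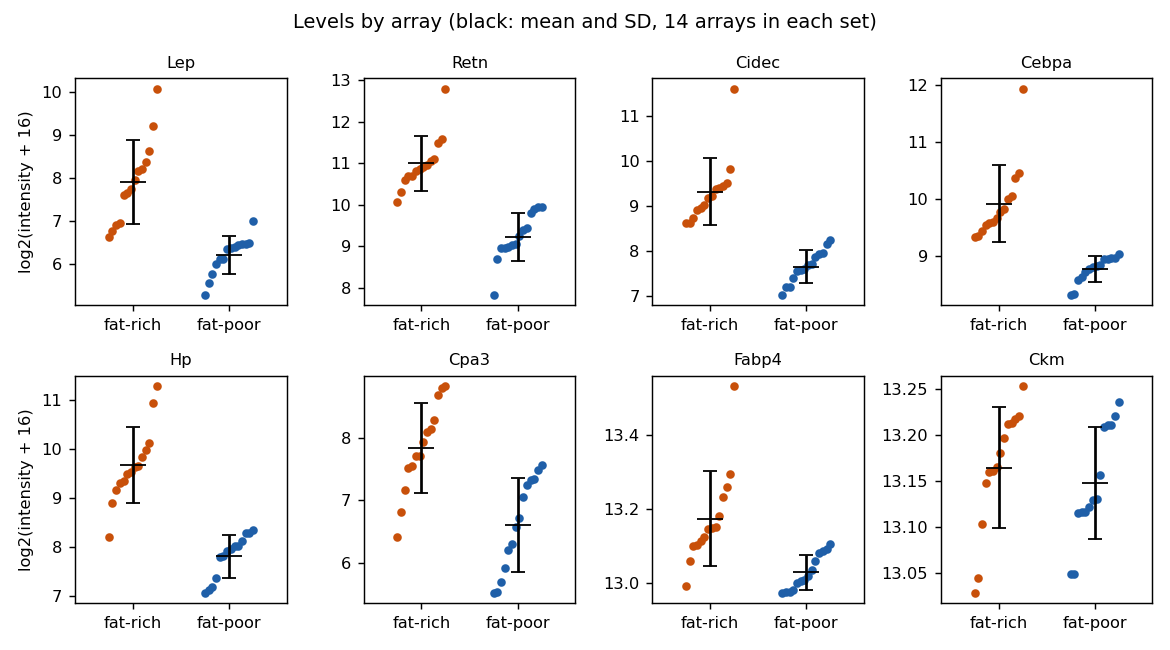
Levels as log2(intensity + 16) of 8 genes in each fat-rich (orange) and fat-poor (blue) array, sorted within a set, with the mean and SD of 14 arrays in black. Retn, Cidec and Cebpa do not overlap between the sets, Lep, Hp and Cpa3 overlap in part, Fabp4 spans only 12.97 to 13.53 over both sets, and Ckm spans nearly the same range in both.

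Cebpa and Pparg, the transcription factors of the fat cell, were both higher in fat-rich arrays. Cebpa had a lowest level of 9.33, a median of 9.72 and a highest of 11.93 in fat-rich arrays, against 8.32, 8.82 and 9.03 in fat-poor arrays. The sets did not overlap, and the difference was 1.08 ± 0.21 (limma adjusted p = 0.014). Pparg, whose product is the receptor that thiazolidinedione drugs bind, had levels of 7.80, 8.01 and 10.33 in fat-rich arrays, against 6.90, 7.22 and 7.83 in fat-poor arrays. A single fat-rich array fell within the fat-poor range, and the difference was 0.94 ± 0.20 (limma adjusted p = 0.024). Acvr1c, the activin receptor ALK7, differed by 1.49 ± 0.21 and did not overlap between the sets. The signalling genes that follow were picked from the calls after their values were seen. Prkar2b, a regulatory subunit of protein kinase A, differed by 1.51 ± 0.25, and Pde3b, a phosphodiesterase through which insulin restrains lipolysis, by 0.95 ± 0.22, both without overlap. Further receptors and signal carriers were Ptger3, a prostaglandin E2 receptor (1.16), Mc2r, the receptor of ACTH (1.07), Irs3, an insulin receptor substrate (0.95), Gnai1, a subunit of inhibitory G protein (0.74), and Fgfr2, a fibroblast growth factor receptor (1.05). Mc2r was dim, with means of 5.86 in fat-rich, 4.90 in fat-poor, 5.33 in between and 7.42 in left-out arrays. The filter of 5.71 was set on means over all 56 arrays, and Mc2r passed it only through the left-out arrays. Its difference is thus a reading near background. Calls held in 25 of 57 alternatives for Pde3b, 24 of 55 for Mc2r, 28 of 56 for Ptger3 and 27 of 57 for Gnai1. They held in 54 of 57 for Prkar2b, 54 of 56 for Irs3 and 43 of 55 for Fgfr2. Of 25 adipocyte markers tested, 9 rose: Lep, Retn, Cidec, Acvr1c, Lgals12 (a galectin of fat cells, 1.41), Rbp4, Adig (adipogenin, 1.12), Cebpa and Pparg. The list's median was 0.94, and 23 of the 25 were above 0.

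The promoter windows of Adipoq and of members of these groups are shown because C/EBP proteins, the products of Cebpa and its relatives, bind letters of the form TTGCNNAA, while CCAAT is the CCAAT box that gave them their name and is bound by other factors as well. The windows run from 250 bases before to 50 after the annotated start, are from RefSeq on GRCm38.p6, and are written 5′ to 3′ on the strand of the gene; capitals mark the motif on either strand. Adipoq (chr16:23146286-23146585, plus strand) holds CCAAT 3 times. Lep (chr6:29059971-29060270, plus strand) holds TTGCNNAA 55 bases before the start, and Cidec (chr6:113434715-113435014, minus strand) holds it 198 bases before the start. Asns (chr6:7693160-7693459, minus strand), the asparagine synthetase described further below, holds TGATGNAA, a form that C/EBP and ATF proteins bind as dimers, 23 bases before the start.
Adipoq: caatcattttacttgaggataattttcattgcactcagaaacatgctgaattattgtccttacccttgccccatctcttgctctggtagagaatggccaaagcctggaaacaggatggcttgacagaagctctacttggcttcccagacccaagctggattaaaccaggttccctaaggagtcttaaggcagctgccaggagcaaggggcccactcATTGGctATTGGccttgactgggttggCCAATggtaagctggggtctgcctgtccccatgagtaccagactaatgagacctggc
Lep: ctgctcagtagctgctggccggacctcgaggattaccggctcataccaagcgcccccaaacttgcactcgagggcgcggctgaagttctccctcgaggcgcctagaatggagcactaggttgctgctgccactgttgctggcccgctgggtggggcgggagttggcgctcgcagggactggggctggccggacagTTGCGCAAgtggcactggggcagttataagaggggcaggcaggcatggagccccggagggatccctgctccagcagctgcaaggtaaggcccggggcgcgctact
Cidec: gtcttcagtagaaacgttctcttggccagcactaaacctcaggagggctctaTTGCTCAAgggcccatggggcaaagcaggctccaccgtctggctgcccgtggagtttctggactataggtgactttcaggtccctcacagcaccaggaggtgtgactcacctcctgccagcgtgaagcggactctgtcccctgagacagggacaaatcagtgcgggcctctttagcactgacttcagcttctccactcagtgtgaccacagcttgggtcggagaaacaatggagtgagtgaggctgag
Asns: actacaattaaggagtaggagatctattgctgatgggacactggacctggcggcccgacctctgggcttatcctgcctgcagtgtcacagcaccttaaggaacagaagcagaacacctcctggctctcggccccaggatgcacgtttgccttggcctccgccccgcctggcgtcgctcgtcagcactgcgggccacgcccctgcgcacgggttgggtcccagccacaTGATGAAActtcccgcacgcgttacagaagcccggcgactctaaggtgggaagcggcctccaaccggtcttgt

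TTGCNNAA occurred in 15 of the 70 windows of called genes (21.4%), against 8.44% of windows of all tested genes and 10.8% of all 32851 windows in the reference. TGATGNAA occurred in 5 of the 70 (7.14%), against 2.35% of windows of tested genes and 3.97% of all. CCAAT was in 21 of the 70 (30%), against 37.4% of windows of tested genes and 37.4% of all. TATAAA was in 11 of the 70 (15.7%), against 7.67% of windows of tested genes and 13.6% of all. Each motif was searched on both strands, and the 70 windows belong to 55 of the 83 genes. These shares are a description of letters, were not tested, and do not show binding.

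Few enzymes of lipid storage and synthesis passed the test. Cidec differed by 1.51 ± 0.21, with a lowest level of 8.63, a median of 9.20 and a highest of 11.61 in fat-rich arrays, against 7.03, 7.66 and 8.25 in fat-poor arrays (limma adjusted p = 0.0013). Ces1f, a carboxylesterase that splits lipid esters, differed by 1.78 ± 0.27, and these were the 2 of 24 lipid droplet and lipolysis genes that rose. The list's median was 0.09, and 19 of the 24 were above 0. Scd1, the desaturase that makes oleate, was the single gene of 27 for fatty acid and triglyceride synthesis that rose. It had levels of 13.20, 13.40 and 13.75 in fat-rich arrays, against 12.77, 13.09 and 13.24 in fat-poor arrays, a difference of 0.34 ± 0.07 (limma adjusted p = 0.027). A second Scd1 probe set, with a mean level of 8.69 against 13.32 for the one used, had a difference of 1.17. Fasn, the fatty acid synthase, had levels of 8.89, 10.58 and 12.69 in fat-rich arrays, against 7.62, 8.85 and 10.22 in fat-poor arrays. Its difference of 1.44 ± 0.38 did not pass (limma adjusted p = 0.085), and its SD within a set was 0.98 in fat-rich and 0.80 in fat-poor arrays. The synthesis list had a median of 0.36, with 24 of the 27 above 0.

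Fabp4 and Lpl, which vessels or muscle fibres also express, did not pass. Fabp4, the fatty acid carrier of fat cells and of capillary endothelium, had levels of 12.99, 13.15 and 13.53 in fat-rich arrays, against 12.97, 13.02 and 13.11 in fat-poor arrays. The difference was 0.16 ± 0.05 (limma adjusted p = 0.18), with a 95% interval, unadjusted, of 0.05 to 0.26, and 10 fat-rich arrays lay above every fat-poor array. Lpl, the lipase that releases fatty acids from lipoproteins, differed by 0.03 ± 0.05, with an interval of -0.07 to 0.14. These levels lie close to the highest value in the table, an intensity of 15890 or 13.96 on the log2 scale, and the other 3 Fabp4 probe sets had differences of 0.17 to 0.43, the 2 with mean levels of 8.33 and 9.78 at 0.43 and 0.41. Of the 831 tested genes with levels of 12 or more, 1 was called (0.12%), against 46 of 4252 with levels under 8 (1.08%). What signal saturation contributes was not tested.

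**Figure D3:**
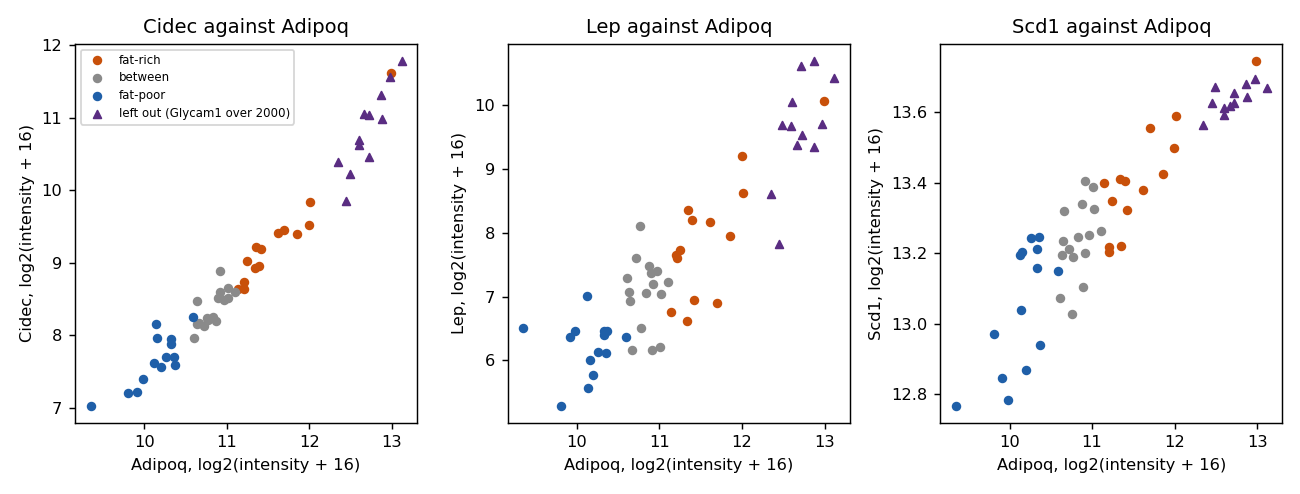
Cidec, Lep and Scd1 against Adipoq, all as log2(intensity + 16), in each of the 56 arrays, with fat-rich arrays in orange, those between in grey, fat-poor in blue and the 12 left out for Glycam1 as purple triangles. Cidec follows Adipoq closely, Lep scatters widely among the arrays between the sets, and Scd1 spans only 12.77 to 13.75 over fat-rich and fat-poor arrays together.

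Several of the largest differences fell outside the lists of fat genes. Acp5, tartrate-resistant acid phosphatase, an enzyme best known from osteoclasts and macrophages, had levels of 6.37, 6.98 and 9.55 in fat-rich arrays, against 5.07, 5.53 and 5.95 in fat-poor arrays. The sets did not overlap, and the difference, 1.82 ± 0.28 (limma adjusted p = 0.0025), was with that of Lep the largest of the 83. Cyp2e1, a cytochrome P450 that oxidises ethanol and ketones, had levels of 10.58, 11.13 and 12.49 in fat-rich arrays, against 8.53, 9.40 and 10.23 in fat-poor arrays. These also did not overlap, with a difference of 1.48 ± 0.18 (limma adjusted p = 0.00053). Cyp2f2, another cytochrome P450, differed by 1.41 ± 0.22, and Tmem45b, a membrane protein, by 1.77 ± 0.26, both without overlap. Wfdc21 differed by 1.55 ± 0.27 and Glb1l2 by 1.52 ± 0.25, with 10 and 13 fat-rich arrays above every fat-poor array.

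Among the 65 called genes outside the lists, a group that handles amino acids was picked out after its values were seen, so its size supports nothing by itself. Asns, which makes asparagine, differed by 0.85 ± 0.18, and Phgdh, which starts serine synthesis, by 1.03 ± 0.18. Cdo1, which oxidises cysteine on the way to taurine, differed by 1.39 ± 0.21 without overlap. The carriers Slc1a5 for glutamine (0.91), Slc1a3 for glutamate (1.04), Slc7a10 for small neutral amino acids (1.18), Slc36a2 for proline and glycine (1.17) and Sfxn1 for serine into mitochondria (0.81) were also higher. Asns and Phgdh are read here from probe sets with a suffix that marks shared sequence. The other Asns probe set had a difference of 0.78 and the other 3 of Phgdh 0.57 to 1.09. Probe sets used for Prkar2b, Gnai1, Fgfr2, Cd1d1, Ces1f and Mup3 carry such a suffix too. Further calls chosen in the same way were the iron- and copper-handling ferroxidases Cp (0.62) and Heph (0.90), the Wnt-binding proteins Sfrp2 (1.04) and Sfrp4 (1.08), and Nnmt (1.04), which methylates nicotinamide. Mup3 and Mup5 (0.77 and 0.81), Orm1 and Ces1f belong to families of closely similar genes, and their probe sets may read relatives too.

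Of the lists of immune cell markers, calls fell among the mast cell genes, and 0 of the macrophage and lymphocyte genes passed. Cpa3, the mast cell carboxypeptidase, had levels of 6.40, 7.82 and 8.82 in fat-rich arrays, against 5.52, 6.64 and 7.57 in fat-poor arrays. Of the fat-rich arrays 9 lay above every fat-poor array, and the difference was 1.01 ± 0.21 (limma adjusted p = 0.026). Cma1, the mast cell chymase, differed by 0.83 ± 0.17 (limma adjusted p = 0.021). These were 2 of 8 mast cell and granulocyte genes, all 8 of which were above 0, with a median of 0.57, and the list's mean level was 6.52 to 7.68 in fat-rich and 5.81 to 7.52 in fat-poor arrays. Their part in the differences of other genes was not tested. Cxcl13, the chemokine that draws B cells, differed by 0.99 ± 0.22 (limma adjusted p = 0.037). Other calls with roles in immunity, outside the lists and picked out after their values were seen, were Cd1d1, which presents lipid antigens (1.43), Cfb, complement factor B (0.67), Lst1 (0.55), Casp1, which activates interleukin-1 beta (0.42), and Herc6, an interferon-induced ligase (0.38). None of 15 macrophage genes passed, though all 15 were above 0 (median 0.23); Cd68, a lysosomal protein of macrophages, differed by 0.14 ± 0.25. The list's mean level was 7.98 to 9.56 in fat-rich and 7.69 to 8.50 in fat-poor arrays. Of 9 lymphocyte genes 0 passed and 8 were above 0 (median 0.31). Their mean level was 4.94 to 6.70 in fat-rich and 4.92 to 5.57 in fat-poor arrays, while Cd4, Ltb and Ccr7 lay below the filter. Medians of that mean level, 5.23 in fat-rich and 5.15 in fat-poor arrays, lay under the filter of 5.71. In the left-out arrays the median was 10.19, and the filter was set on means over all 56 arrays. As a list these genes were thus read near background, so the lack of calls cannot decide whether they differ. With the lymphocyte mean as a further covariate, 51 genes were called higher, all 51 among the 83. That covariate rests on the same dim genes. Interferon response genes had a median of 0.25, with 16 of 17 above 0 and 0 called.

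The stromal and matrix lists held 1 call each. Sfrp4, at 1.08 ± 0.22 (limma adjusted p = 0.020), was the single call among 24 genes of adipose progenitors and fibroblasts (median 0.14), and Pdgfra differed by 0.15 ± 0.07 (limma adjusted p = 0.39). Nid2, a basement membrane protein, at 0.39 ± 0.08 (limma adjusted p = 0.020), was the single call among 29 collagen and matrix genes, of which 28 were above 0 (median 0.21). Col1a1, the main chain of fibrillar collagen, differed by 0.06 ± 0.08. Outside the lists, and picked out after their values were seen, the calls also held Sfrp2 (1.04), Mmp3, a protease that degrades matrix (0.89), Ccdc80, a secreted matrix-binding protein (0.73), and Adamts12, another secreted protease (0.49). Of 19 endothelial genes 0 passed, with a median of 0.02, and Pecam1, which joins endothelial cells, differed by 0.01 ± 0.08. Among 13 tendon and cartilage genes 0 passed and 1 was above 0 (median -0.10), with list means of 8.67 to 9.69 in fat-rich and 8.30 to 10.01 in fat-poor arrays. Of 6 tested genes of skin and mammary epithelium 0 passed, with a median of 0.18, and milk protein genes such as Csn2 lay below the filter.

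No gene of the brown and beige fat list passed the test, and Ucp1, Cidea and Elovl3 lay below the filter. Ucp1, the uncoupling protein of brown fat cells, lay below the filter, with levels of 5.04 to 6.57 in fat-rich and 4.99 to 5.64 in fat-poor arrays. Cidea, a droplet protein of brown and beige fat, also lay below the filter and was at most 5.17 in fat-poor arrays. It reached 8.52 in 1 fat-rich array, replicate 2 of air at 24 weeks, the array of highest Adipoq, in which Ucp1 was at 6.57. The 10 tested genes of the list had a median of 0.00, with 5 of the 10 above 0, and the list's mean level was 8.56 to 9.19 in fat-rich and 8.71 to 9.15 in fat-poor arrays.

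**Figure D4:**
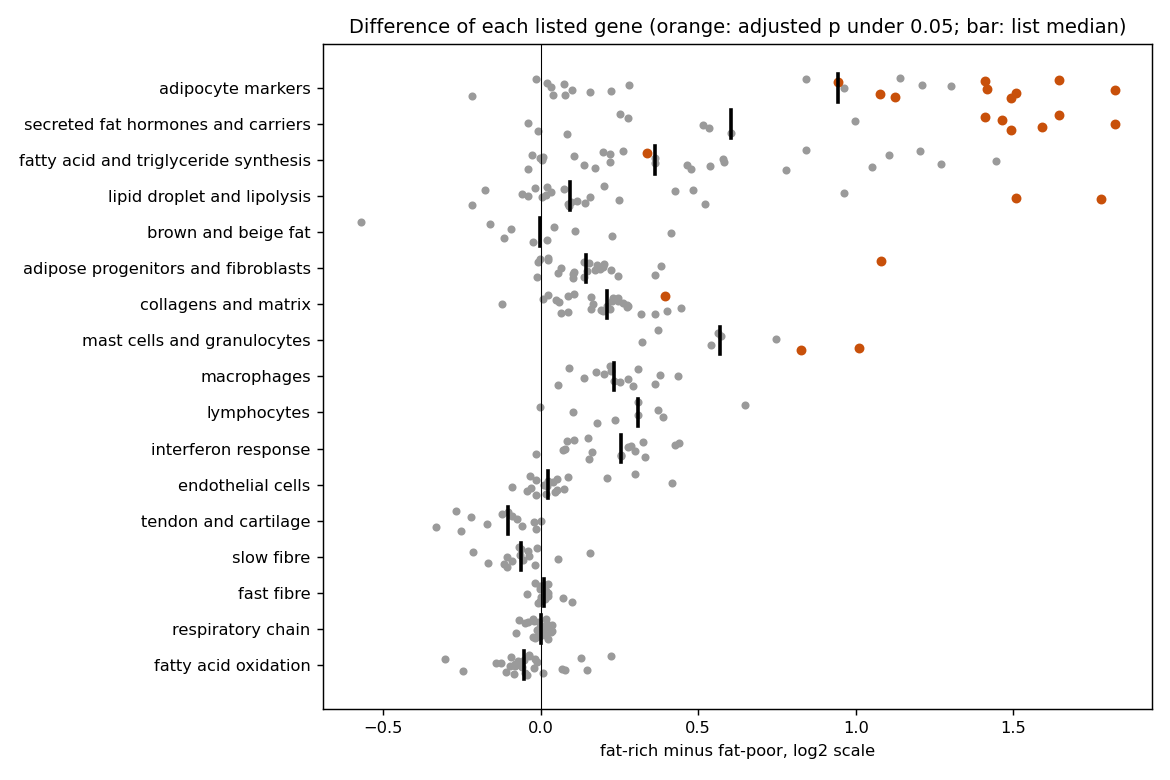
Difference of each tested gene between fat-rich and fat-poor arrays on the log2 scale, 1 row for each of 17 gene lists; orange points have a limma adjusted p under 0.05, grey points do not, and black bars are list medians. Adipocyte markers have a median of 0.94 and fast fibre, respiratory chain and endothelial genes lie around 0.

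Muscle genes did not differ by amounts the arrays could show. Ckm differed by 0.00 ± 0.03, with a 95% interval of -0.07 to 0.07, and Myh4, the fastest myosin heavy chain, by 0.02 ± 0.03. Myh7, the slow myosin heavy chain, was 11.25 to 13.01 in fat-rich and 11.53 to 13.15 in fat-poor arrays and differed by 0.05 ± 0.20, with an interval of -0.35 to 0.46. None of 19 fast fibre genes (median 0.01), 16 slow fibre genes (median -0.06), 28 respiratory chain genes (median 0.00) and 18 genes of glycolysis and glycogen (median 0.01) passed. Differences were above 0 for 2 of the 16 slow fibre genes and 13 of the 19 fast fibre genes, beside 59.4% of all genes. Of 27 fatty acid oxidation genes 0 passed and 6 were above 0, with a median of -0.05. Cyp1a1, which the dioxin receptor induces after smoke, differed by -0.24 ± 0.17 (limma adjusted p = 0.66), and 0 of 14 smoke and xenobiotic response genes passed. Nr1d1, a repressor of the circadian clock, differed by 0.00 ± 0.10, and 0 of 20 clock genes passed. Fast fibre and energy genes also lie near the top of the arrays' range, with fast fibre list means of 13.36 to 13.46 in fat-rich and 13.34 to 13.48 in fat-poor arrays.

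The 16 arrays between the sets belong to neither and allow the relation to be read in other samples, though the same ranking by Adipoq placed them there. Each gene was fitted against the Adipoq level in these 16 arrays alone, whose Adipoq spans only 10.61 to 11.10. With limma, 0 of 12350 genes (0%) passed an adjusted p under 0.05, the smallest being 0.20, and 978 had an unadjusted p under 0.05. Of the 83 genes called between the sets, 79 (95.2%) had a slope above 0, against 62.0% of all genes tested. Their median slope was 0.82 log2 units per log2 unit of Adipoq, against 0.08 for all genes. An unadjusted p under 0.05 with a slope above 0 was seen for 32 of the 83 (38.6%), against 712 of 12350 (5.77%). Slopes were 1.93 ± 0.54 for Retn, 1.17 ± 0.28 for Cidec, 1.53 ± 0.36 for Acvr1c and 0.80 ± 0.23 for Aoc3, an amine oxidase of the fat cell surface. Lep, by contrast, had a slope of -0.18 ± 0.89, so its relation to Adipoq was not resolved over this narrow range. The gene lists went both ways in these arrays. Of 13 tendon and cartilage genes 0 had a slope above 0 (median -1.01), and of 17 interferon response genes 17 did (median 1.31). The interferon list's mean level in these arrays had a median of 7.29 and a highest of 9.55. It was at most 8.01 in fat-rich and 7.63 in fat-poor arrays. What the array at 9.55 contributes to the interferon slopes was not tested. In the 12 arrays left out for Glycam1, 81 of the 83 had a higher mean than in fat-rich arrays, against 48.2% of all genes. Those arrays are high in Adipoq and in Glycam1 at once. Their median of the list mean was also 10.19 for lymphocyte genes, against 5.23 in fat-rich arrays. For skin and mammary epithelium genes it was 8.74, against 6.46 in fat-rich arrays. What goes with fat and what goes with lymph node or epithelial tissue thus cannot be told apart in them.

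**Figure D5:**
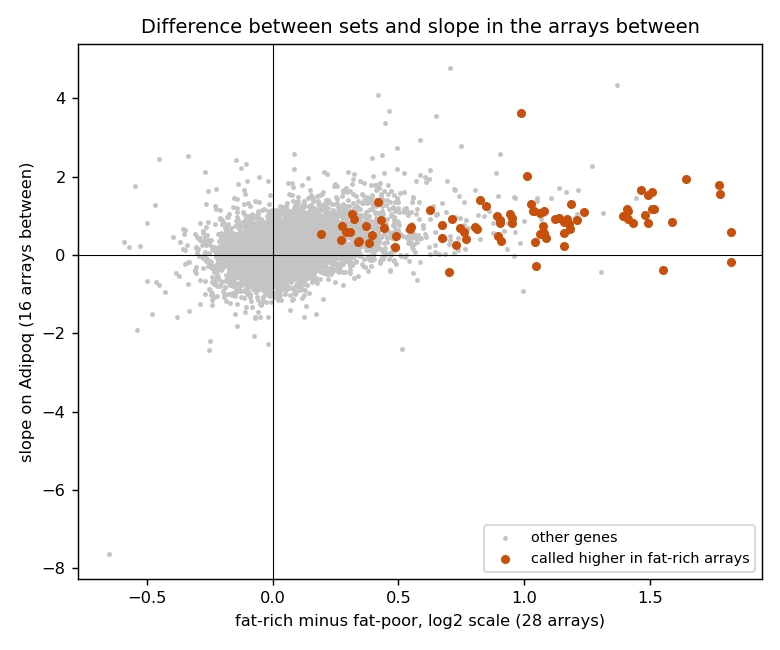
Each tested gene's difference between fat-rich and fat-poor arrays (x axis, log2 scale, 28 arrays) and its slope on Adipoq in the 16 arrays between (y axis, log2 units per log2 unit); orange points are the 83 genes called between the sets. Of these, 79 lie above the horizontal line at 0, and Lep, Wfdc21, Fgfr2 and Pon1 lie below it.

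Across all 44 kept arrays, after taking off the mean of each group, the genes whose levels went most closely with Adipoq were Cidec (Pearson r = 0.96, Spearman rho = 0.95), Cdo1 (r = 0.96), Acvr1c (r = 0.95), Lgals12 (r = 0.95), Cebpa (r = 0.95), Prkar2b (r = 0.94), Slc1a5 (r = 0.94), Slc1a3 (r = 0.94), Retn (r = 0.93) and Ifi27l2a (r = 0.93). Without the 2 arrays farthest from the median of Adipoq, r of these 10 genes was 0.89 to 0.95. These correlations describe arrays that share 1 amplification procedure and include those from which the sets were cut. Ifi27l2a, an interferon-induced gene, was called between the sets too (difference 1.18 ± 0.15, limma adjusted p = 0.00075), at levels of 10.58 to 12.54 in fat-rich and 8.71 to 10.36 in fat-poor arrays, with no overlap.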

How the data were processed

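Intensity values of 56 arrays, a linear signal per probe set, were used as deposited by the authors; no source used here says how probes were summarised, background-corrected and scaled. RNA was amplified and biotin-labelled by NuGEN kits, per the labels' protocols. Array medians of 62.5 to 77.5 were left unscaled; precision is limited by the number of arrays. Values were floored at -15 (5 of 2522072 moved), 16 was added and log2 taken, so folds of dim genes are understated. Of 45037 probe sets, 34945 had 1 symbol in the platform annotation, updated through RefSeq (GRCm38.p6); 932 with several and 9160 with none were left out, among them any for Plin1, Cfd and Adrb3. The probe set of highest mean stood for each of 18193 genes. Of these, 12351 passed a filter at the 40th percentile of probe set means over all 56 arrays (5.71). Adipoq was not tested.

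Groups are those of the labels. Fat-rich and fat-poor arrays were compared with limma (lmFit and eBayes) with group as a covariate, with 18 residual degrees of freedom (20.5 once moderated), and p values were adjusted by Benjamini-Hochberg over 12350 genes. The 16 arrays between were fitted on Adipoq without a covariate (14 residual degrees of freedom). Levels carry SDs and differences SEs; nothing states how the mice were housed or batched. The members, gene lists and the named genes were chosen with earlier results of these data known. Named genes were the 15 largest higher calls (and up to 10 lower, of which there were 0), leaving out probe sets of shared sequence and unnamed transcripts, up to 4 calls of each list, a fixed set of markers and the 10 genes most like Adipoq; others named were chosen after their values were seen. Alternatives covered pseudocount, normalization, filter, probe sets, set size, ranking, covariates, groups and arrays left out, and moderation. The fit was tested on simulated data. Tools were R 4.3.3, limma 3.58.1, data.table (1.17.8), Python 3.11.15, numpy 2.4.6, pandas 2.3.3, scipy 1.17.1 and matplotlib 3.10.9.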

Additional observations from a re-analysis of the deposited data

How the results depend on the processing

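The share of genes higher in fat-rich arrays, 0.672%, and the number lower, 0, depended more on the choice of arrays than on the scaling. With 10 arrays in each set the share was 0% and the number lower 0, and with 18 they were 2.09% and 5. Adipoq as a numeric term over 44 arrays gave 6.03% and 57, ranking by Adipoq minus its group mean gave 2.47% and 16, and no covariate gave 3.19% and 11. The lymphocyte mean as a covariate gave 0.413%, array weights 1.17% with 2 lower, and no filter 0.396%, the last over 18192 genes. Leaving out a group gave 1.08% with 3 lower (air at 24 weeks), 0.308% (air at 2 weeks), 0.300% (cessation FA), 0.081% (smoke at 2 weeks) and 0.332% (untreated). Without smoke at 12 weeks 1 gene was lower, as with the mean of probe sets. Ranking by Cidec, chosen after seeing the data because no Plin1 probe set could be used, gave 0.291% and 1 lower; the planned ranking by Plin1 was not run. Leaving out each of the 28 arrays in turn, also added later, gave 0.267% to 1.81% higher and 0 to 4 lower. The causes were not tested. Other alternatives, among them both pseudocounts, quantile normalization and a filter at the 60th percentile, stayed within 1.5 times of 0.672%. For the named genes 1829 values stayed on the same side of the threshold, 154 lost the call, 7 gained it and none of them turned in sign with a call; 1539 list medians moved by less than the spread between arrays. In the arrays between the sets the number called stayed 0 with a pseudocount of 64, quantile normalization or group as a covariate. No paired analysis was possible because replicate numbers only follow sample order. Arrays have no read depth. Near background, differences are understated, and near the top of the range they may be, which was not tested.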
